A study of Rattus norvegicus with 14 samples.

Results

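The genes of the eukaryotic translation initiation factors were followed here in RNA-seq libraries of primary rat hippocampal cultures. Members were all symbols that begin with Eif and reach a mean normalized count of at least 10 in the neuron or the astrocyte table, the EIF2 kinases (Eif2ak1 to Eif2ak4) included. All 52 Eif symbols listed met the minimum, and met it in both tables, out of 15314 genes tested in neurons and 15380 in astrocytes. No symbol lay near the minimum, since the lowest mean belonged to Eif4e3, at 111 normalized counts in neurons and 241 in astrocytes. The highest belonged to Eif4g2, at 35604 in neurons and 36354 in astrocytes.

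Cap-dependent translation starts when eIF2, loaded with GTP and the initiator tRNA, joins the small ribosomal subunit together with eIF1, eIF1A, eIF3 and eIF5. The complex eIF4F, made of the cap-binding eIF4E, the scaffold eIF4G and the helicase eIF4A, brings that subunit to the capped end of the mRNA. Cells slow initiation in a pair of well-known ways, by the phosphorylation of eIF2 alpha by one of its kinases, which blocks the exchange factor eIF2B, and by eIF4E binding proteins, which mTOR phosphorylation releases from eIF4E. In neurons both routes are known for their part in synaptic plasticity and in the response to starvation and stress.

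The 14 libraries came from cultures of hippocampi of Sprague Dawley rat fetuses at embryonic day 18. Neurons at day 10 were kept for 4 h in medium with reduced supplement, which the study calls its Aging Model (AM), and then for 16 h with 100 nM allopregnanolone (Allo, a neurosteroid that modulates the GABA-A receptor) or with vehicle (0.001% ethanol) in the same medium. Astrocytes, prepared from mixed glia by shaking off the loosely attached cells, were kept for 24 h in medium with charcoal-stripped serum and then for 24 h with 100 nM Allo or vehicle. The groups were 4 neuron AM-Veh, 4 neuron AM-Allo, 3 astrocyte AM-Veh and 3 astrocyte AM-Allo libraries, so every library, vehicle included, came from AM medium. Neither the labels nor the methods say which libraries share a dissection or a culture, so p-values measure the spread between these libraries, which may be technical.

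The values are the authors' normalized counts, scaled separately in each culture. The scaled tables summed to 21985000 to 22357500 in the neuron libraries and to between 23783800 and 24006600 in those of astrocytes, and the spacing of their lowest values gave an estimated 19600000 to 25100000 and 22200000 to 28600000 reads. Both sets of libraries held markers of other cells. The neuron libraries held 68164 to 118740 normalized counts of the astrocyte gene Gfap beside 23908 to 27068 of the neuronal gene Map2, and their 9 listed astrocyte markers summed to 198968 to 258956, against 239668 to 253760 in the astrocyte libraries. The 9 listed neuron markers summed to 54878 to 65528 in neuron and 29596 to 31019 in astrocyte libraries, where the defining gene Rbfox3 had 0 to 5 counts. Most of the astrocyte sum was a single gene, Stmn2, with 20946 to 22152, against 8802 to 11475 in neuron libraries. In the astrocyte libraries Map2 had 3268 to 4066, Dlg4 2945 to 3258 and Gad1 1719 to 1948. Tubb3 had 26 to 37 there, Syt1 9 to 27, Slc17a7 0 to 8 and Nefl 0 to 3. The 6 mesenchymal markers summed to 60498 to 71815 in the astrocyte libraries. In bulk RNA of this kind, fewer cells of a type and less RNA per cell cannot be told apart. Neuron libraries carry the numbers 1-1, 1-2, 2-1 and 2-2 in each group, and those sharing a first number resembled each other across genes, whatever the treatment. The labels do not say what that first number stands for.

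In neurons, Allo moved no initiation factor gene past the test. Of the 52 genes, 0 were called at an unadjusted p under 0.05 (limma on log2(normalized count + 1)), against 5.69% of all genes tested, and 0 after Benjamini-Hochberg adjustment over all genes, against 0.0261%. Their estimates leaned one way, with 37 genes (50.8% of all genes) lower and 15 higher in AM-Allo and a median log2 fold change of -0.0165, beside -0.0015 over all genes. All estimates lay between -0.08 and 0.10. The 95% interval had a median half-width of 0.0901 on the log2 scale, a 6.44% difference, in this fit without the replicate numbers. The half-width was under 0.2 for 49 of the 52 genes and widest for Eif4ebp1, at 0.758.

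**Figure D1:**
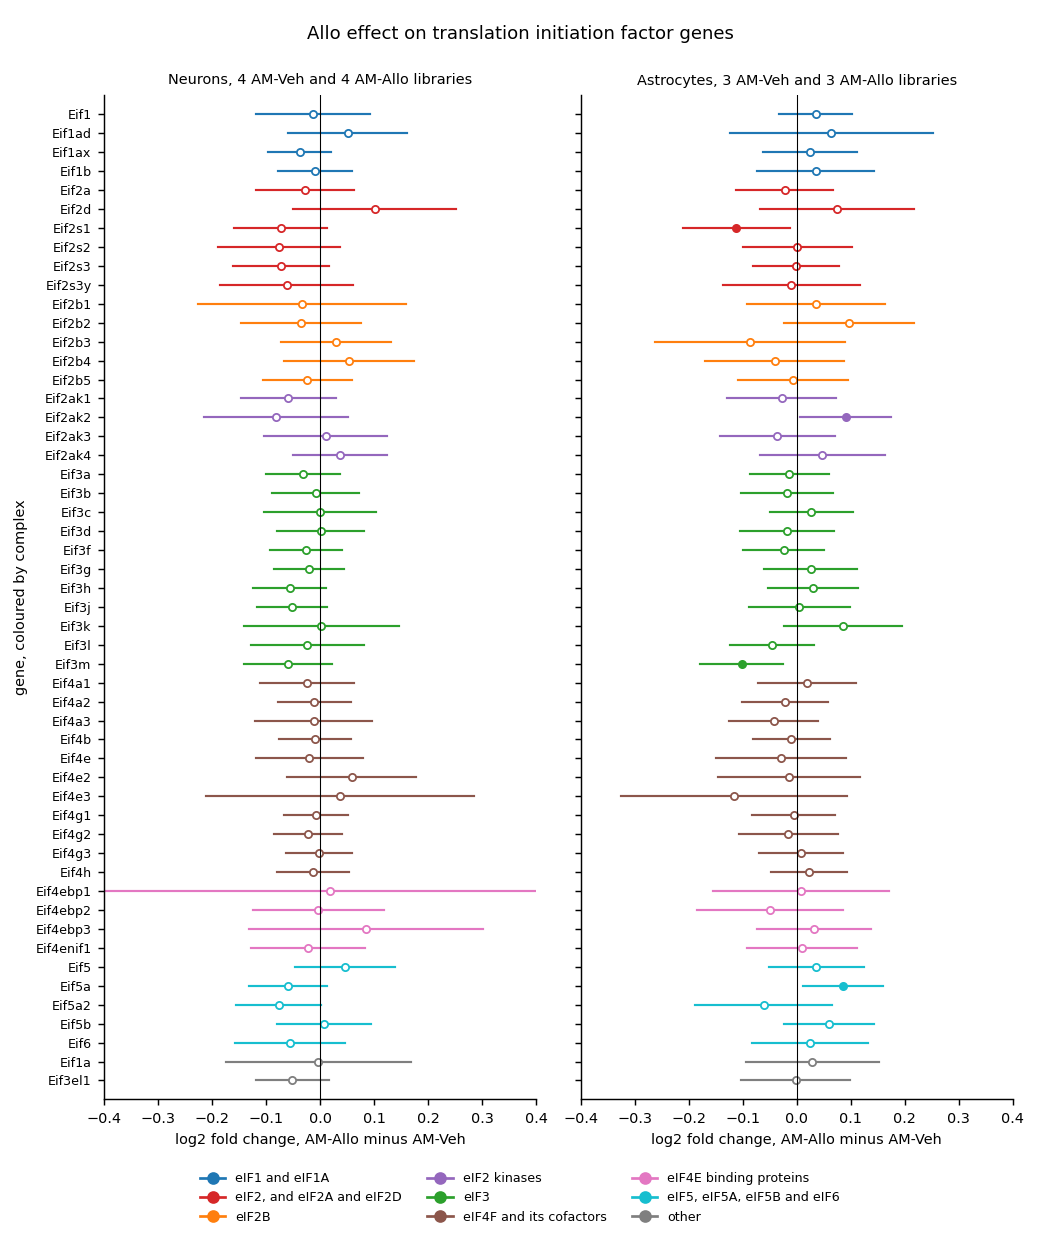
Log2 fold change of AM-Allo over AM-Veh (x axis) for each of the 52 genes (y axis, coloured by complex) in neurons (left) and astrocytes (right). Points are limma estimates, bars their 95% intervals, and filled points have an unadjusted p under 0.05: none in neurons, and Eif2s1, Eif3m, Eif5a and Eif2ak2 in astrocytes. The neuron interval of Eif4ebp1, from -0.74 to 0.78, runs past both ends of the axis.

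The neuron estimates farthest below 0 included the 3 subunits of eIF2. Eif2s1, the alpha subunit and the one the stress kinases phosphorylate, had 1894, 1968, 2059 and 2081 normalized counts in AM-Veh libraries 1-1, 1-2, 2-1 and 2-2, and 1838, 1917, 1909 and 1940 in the AM-Allo libraries of the same numbers. Eif2s2, the beta subunit, had 3886, 4061, 4362 and 4472 in AM-Veh and 3779, 3838, 4142 and 4155 in AM-Allo. Eif2s3, the gamma subunit that binds GTP and the initiator tRNA, had 6323, 6447, 6291 and 6129 in AM-Veh and 6193, 6348, 5681 and 5758 in AM-Allo. Each AM-Allo library lay below the AM-Veh library of its own number for all 3 genes, while the groups as a whole overlapped. The log2 fold changes were -0.07 ± 0.04 (SE) for Eif2s1, -0.08 ± 0.05 for Eif2s2 and -0.07 ± 0.04 for Eif2s3, with unadjusted limma p of 0.0878, 0.168 and 0.0990 (adjusted p 0.892, 0.954 and 0.905).

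Eif5a, the elongation and termination factor that carries hypusine, followed the same order, with 10019, 9907, 10426 and 10387 in AM-Veh and 9590, 9442, 10126 and 9936 in AM-Allo, a log2 fold change of -0.06 ± 0.03 (limma p = 0.0990; exact permutation p = 0.143). Its paralog Eif5a2 had 1199, 1220, 1247 and 1237 in AM-Veh and 1135, 1204, 1148 and 1162 in AM-Allo (-0.08 ± 0.04, limma p = 0.0560, the smallest of the 52; exact permutation p = 0.0571). Only the highest AM-Allo library of Eif5a2 reached into the AM-Veh range. Eif1ax, the X-linked gene of eIF1A, which helps the scanning subunit find the start codon, was the single member whose neuron groups did not overlap (3.95% of all genes), with 5278 to 5388 in AM-Veh and 5112 to 5276 in AM-Allo. Its log2 fold change was -0.04 ± 0.03 (limma p = 0.181; exact permutation p = 0.0286, two-sided, the smallest that 4 against 4 can give).

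Because libraries of the same number varied together, the fit was repeated with the number as a block. With the first number as the block, 7 members were called at an unadjusted p under 0.05, against 11% of all genes. All 7 (Eif2s1, Eif2s2, Eif2s3, Eif5a, Eif5a2, Eif3h and Eif2ak2) were lower in AM-Allo, where 5.24% of all genes were called. With the whole number as the block, 5 were called against 10.7% of all genes, the eIF2 subunits and Eif5a lower and Eif2d higher. The blocked p-values (first number, then whole number) were 0.0349 and 0.0401 for Eif2s1, 0.0102 and 0.0130 for Eif2s2, 0.0144 and 0.0207 for Eif2s3, and 0.0123 and 0.0181 for Eif5a. No member passed after adjustment in either fit, the smallest adjusted p being 0.263 for Eif2s2. The share of members called was close to that of all genes in both fits. Of the 52 genes, 11 were lower in 4 of 4 same-number pairs (21.2%, beside 9.26% of all genes tested) and Eif2d alone was higher in 4 of 4.

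**Figure D2:**
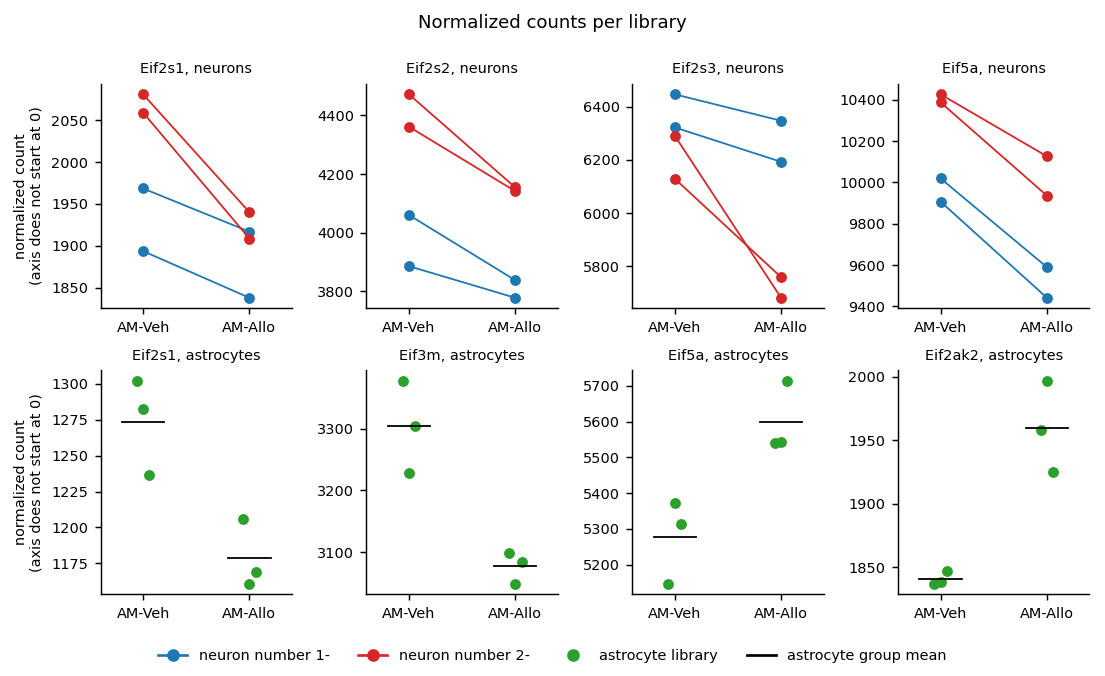
Normalized counts per library (y axis, not starting at 0) in AM-Veh and AM-Allo. Top row, neurons, with a line joining libraries of the same number (blue, first number 1; red, first number 2): all lines of Eif2s1, Eif2s2, Eif2s3 and Eif5a slope down. Bottom row, astrocytes, 3 libraries a group with the group mean as a bar: AM-Allo lies below AM-Veh for Eif2s1 and Eif3m and above it for Eif5a and Eif2ak2.

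The other neuron members gave smaller or less even differences. Of the remaining eIF2-type genes, Eif2s3y, the Y-linked copy of the gamma subunit, had 1081 to 1259 in AM-Veh and 1067 to 1160 in AM-Allo. Eif2a, which can deliver the initiator tRNA by itself, had a log2 fold change of -0.03 (limma p = 0.510; exact permutation p = 0.486). Eif2d, which acts in reinitiation and ribosome recycling, had the largest positive estimate, with 654, 752, 718 and 811 in AM-Veh and 734, 784, 789 and 835 in AM-Allo (0.10 ± 0.07, limma p = 0.167; exact permutation p = 0.257). The 5 genes of eIF2B, the exchange factor that reloads eIF2 with GTP, lay between -0.04 and 0.05, 2 higher and 3 lower.

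Among the 4 EIF2 kinases, Eif2ak2 (PKR, activated by double-stranded RNA) had 1232 to 1370 in AM-Veh and 1149 to 1357 in AM-Allo, the lowest estimate of all members (-0.08 ± 0.06, limma p = 0.203; exact permutation p = 0.257; limma p = 0.0468 with the first number as block). Eif2ak1 (HRI, the heme-regulated kinase) had a log2 fold change of -0.06 ± 0.04 (limma p = 0.171; exact permutation p = 0.171). Eif2ak3 (PERK, the kinase of the endoplasmic reticulum) and Eif2ak4 (GCN2, the sensor of uncharged tRNA) had estimates of 0.01 and 0.04. None of the 4 passed the test without the block.

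For eIF3, the scaffold that holds the initiation complex on the small subunit, 8 of 11 listed subunit genes were lower and 3 higher, none called. Eif3h went from 3746 to 3803 in AM-Veh to 3521 to 3783 in AM-Allo (-0.06 ± 0.03, limma p = 0.0917; exact permutation p = 0.0857; limma p = 0.0456 with the first number as block). Eif3m, a subunit at the edge of the complex, had 2519, 2442, 2655 and 2676 in AM-Veh and 2489, 2427, 2444 and 2510 in AM-Allo (-0.06 ± 0.04, limma p = 0.135; exact permutation p = 0.143). The groups of both genes overlapped. Eif3e and Eif3i were not analysed here. Eif3el1 (-0.05, limma p = 0.122; exact permutation p = 0.0571) stands in RefSeq both as a locus of its own on chromosome 1 and as a synonym of Eif3e on chromosome 7, so what its counts stand for is uncertain.

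The 11 genes grouped as eIF4F and its cofactors had a median of -0.01 and a range from -0.02 to 0.06. They were grouped by gene family, so not every one need belong to eIF4F itself. The helicase genes Eif4a1, Eif4a2 and Eif4a3 had log2 fold changes of -0.02, -0.01 and -0.01, and the Eif4g family genes Eif4g1, Eif4g2 and Eif4g3 had -0.0079, -0.0225 and -0.0017. The cap-binding genes Eif4e, Eif4e2 and Eif4e3 had -0.02, 0.06 and 0.04. Eif4ebp3, a binding protein of eIF4E, had the second highest estimate of all members (0.08 ± 0.10, limma p = 0.408, exact permutation p = 0.543). This gene lies beside Ankhd1 on chromosome 18, and Ankhd1 was not analysed here, so what the counts of Eif4ebp3 stand for is uncertain. Of Eif1 and Eif1b, the start codon gatekeeper and its close copy, both lay at -0.01.

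In astrocytes, 4 of 52 members were called at an unadjusted p under 0.05 (7.01% of all genes), and 0 after adjustment (0.0065% of all genes). Eif3m and Eif2s1 were lower and Eif5a and Eif2ak2 higher in AM-Allo, by ratios of group means of 0.931, 0.925, 1.06 and 1.06. Over all 52 genes 26 were higher and 26 lower, with a median of -0.0003 beside 0.0014 over all genes, and the median half-width of the 95% interval was 0.0962. Markers moved in the same libraries. Of the 9 astrocyte markers 8 were lower in AM-Allo, 2 of them called (Slc1a2, -0.36, and S100b, -0.09), with sums of 240590 to 253760 in AM-Veh and 239668 to 243757 in AM-Allo. The microglial Cx3cr1 (-0.58), 1 of 9 microglia markers, and the neuronal Map2 (-0.13), 1 of 6 tested neuron markers, were called lower too. The microglia sums were 1435 to 1852 and 1475 to 1671, those of the neuron markers 30414 to 31009 and 29596 to 31019. Their part in the 4 calls was not tested.

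Eif3m had 3378, 3228 and 3304 normalized counts in the AM-Veh libraries and 3099, 3049 and 3084 in the AM-Allo libraries, a log2 fold change of -0.10 ± 0.04 (limma p = 0.0132, adjusted p = 0.570; exact permutation p = 0.1). Eif2s1 had 1302, 1282 and 1237 in AM-Veh and 1206, 1161 and 1169 in AM-Allo, a log2 fold change of -0.11 ± 0.05 (limma p = 0.0293, adjusted p = 0.684; exact permutation p = 0.1). Eif5a had 5145, 5372 and 5315 in AM-Veh and 5540, 5543 and 5715 in AM-Allo, a log2 fold change of 0.09 ± 0.03 (limma p = 0.0266, adjusted p = 0.668; exact permutation p = 0.1). The groups of these 3 genes did not overlap.

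Eif2ak2 had 1837, 1839 and 1847 in AM-Veh and 1958, 1997 and 1925 in AM-Allo, a log2 fold change of 0.09 ± 0.04 (limma p = 0.0366, adjusted p = 0.686; exact permutation p = 0.1). Its 3 vehicle libraries lay closer to each other than those of the other called genes. For each of the 4 genes the exact permutation p was 0.1, the smallest that 3 against 3 can give. In all, 9 of 52 members had groups that did not overlap, against 12.5% of all genes: these 4 and Eif1, Eif2a, Eif2b3, Eif3l and Eif4a3, whose limma p ran from 0.223 to 0.595. When 1 library at a time was left out, the log2 fold changes stayed between -0.12 and -0.09 for Eif3m, -0.13 and -0.10 for Eif2s1, 0.07 and 0.10 for Eif5a, and 0.08 and 0.10 for Eif2ak2, while some calls were lost. Without AM-Veh library 1, p was 0.0525 for Eif3m, 0.0972 for Eif5a, 0.0936 for Eif2s1 and 0.0721 for Eif2ak2. Eif5a also missed the threshold without AM-Allo library 3 (0.0838), and Eif2s1 without AM-Veh library 2 (0.0751), AM-Allo library 2 (0.0689) or AM-Allo library 3 (0.0588). Eif2ak2 kept its call in no fit without 1 library other than that without AM-Allo library 3 (0.0320).

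The 4 genes called in astrocytes are shown with the stretch before their RefSeq transcription start (GRCr8, 5′ to 3′ on the gene's strand), as far as it lies outside the annotated gene, so that the words searched can be seen in place. Capitals mark the matches. Eif2s1 lies on the plus strand at chr6:103405630-103405879, Eif3m on the minus strand at chr3:111897194-111897443, Eif5a on the minus strand at chr10:55143273-55143471 and Eif2ak2 on the plus strand at chr6:21940904-21941146.
Eif2s1: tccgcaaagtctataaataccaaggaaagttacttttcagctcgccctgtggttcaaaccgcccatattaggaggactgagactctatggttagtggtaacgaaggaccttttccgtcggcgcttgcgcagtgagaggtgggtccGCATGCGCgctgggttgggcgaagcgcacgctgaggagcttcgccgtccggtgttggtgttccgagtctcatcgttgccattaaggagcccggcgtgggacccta
Eif3m: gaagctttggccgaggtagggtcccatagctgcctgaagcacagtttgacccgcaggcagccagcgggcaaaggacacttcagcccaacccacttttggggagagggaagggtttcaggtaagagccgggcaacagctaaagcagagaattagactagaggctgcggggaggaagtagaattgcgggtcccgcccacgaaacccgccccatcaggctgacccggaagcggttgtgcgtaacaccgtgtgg
Eif5a: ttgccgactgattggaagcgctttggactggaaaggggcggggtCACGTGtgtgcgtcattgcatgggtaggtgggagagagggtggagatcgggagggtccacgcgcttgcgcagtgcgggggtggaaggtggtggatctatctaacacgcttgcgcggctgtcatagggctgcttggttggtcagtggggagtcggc
Eif2ak2: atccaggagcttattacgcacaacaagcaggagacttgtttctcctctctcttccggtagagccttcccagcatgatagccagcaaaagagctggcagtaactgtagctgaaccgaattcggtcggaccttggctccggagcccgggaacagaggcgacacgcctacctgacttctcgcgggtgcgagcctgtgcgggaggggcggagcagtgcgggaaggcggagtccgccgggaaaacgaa

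The words searched, on both strands of the 250 bases before the start, were GCGCATGC (a core of the NRF1 site), CACGTG (the E-box), TGACGTCA (the cAMP response element) and TGATGCAA (the ATF4 composite element). They do not overlap one another in the printed stretches. Eif2s1 holds the NRF1 word at bases 105 to 98 and Eif5a the E-box at bases 206 to 201, counted back from the end of the 250 bases. Eif3m and Eif2ak2 hold none of the 4 words in the 250 bases. For Eif5a the last 51 of these bases, and for Eif2ak2 the last 7, lie inside the annotated gene and are not printed. The count for Eif5a therefore includes bases that follow the printed stretch. Of the 47 members with a promoter entry, 4 hold the NRF1 word (8.51%, against 2.20% of all 33469 promoters), 8 the E-box (17% against 5.59%), 1 the ATF4 word (2.13% against 0.693%) and 0 the cAMP response element (1.59% of all promoters). A match is only a description of these letters. The members with the E-box are Eif1b, Eif3b, Eif3f, Eif4e, Eif4g1, Eif4h, Eif5a and Eif5a2, and the 1 with the ATF4 word is Eif2s2. Eif3el1, Eif3h, Eif4b, Eif4e3 and Eif4ebp1 have no entry.

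The other astrocyte members, none of them called, spread evenly around 0. The beta and gamma subunits of eIF2 gave log2 fold changes of 0.0011 and -0.0017, beside -0.11 for the alpha subunit. The other kinases, Eif2ak1, Eif2ak3 and Eif2ak4, gave -0.03, -0.04 and 0.05. Eif2b2 (0.10, limma p = 0.108; exact permutation p = 0.2) had the highest and Eif4e3 (-0.12, limma p = 0.253; exact permutation p = 0.2) the lowest estimate of all members. The 11 genes grouped as eIF4F and its cofactors ran from -0.12 to 0.02, with Eif4a1, Eif4a2 and Eif4a3 at 0.02, -0.02 and -0.04 and Eif4g1, Eif4g2 and Eif4g3 at -0.01, -0.02 and 0.01. Eif4e and Eif4e2 gave -0.03 and -0.01, Eif1 0.04, Eif1b 0.03, Eif5a2 -0.06, and Eif2s3y -0.01.

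Around the initiation factors, 4 lists of related genes gave 0 or 1 call each in each culture. Over all genes tested, 5.69% were called in neurons and 7.01% in astrocytes. Of 14 tested genes around eIF2 (among them the transcription factor Atf4, its targets such as Trib3 and Asns, the phosphatase subunits Ppp1r15a and Ppp1r15b, and the regulators Impact, Dnajc3 and Nck1), 0 were called in neurons and 1 in astrocytes. That gene was Ddit4, an inhibitor of mTORC1, with 685, 745 and 690 in AM-Veh and 825, 823 and 834 in AM-Allo (0.23 ± 0.06, limma p = 0.00125, adjusted p = 0.32; exact permutation p = 0.1). Of the partners of eIF4F, 1 of 18 in neurons and 1 of 17 in astrocytes was called, in both cultures Cyfip2, whose protein belongs to a family that binds eIF4E and the WAVE complex. It had 10927 to 11314 in AM-Veh and 11935 to 12152 in AM-Allo neurons (0.11 ± 0.03, limma p = 0.00153, adjusted p = 0.44; exact permutation p = 0.0286), and 406 to 436 in AM-Veh and 359 to 393 in AM-Allo astrocytes (-0.19 ± 0.08, limma p = 0.0259, adjusted p = 0.66; exact permutation p = 0.1). Neither pair of groups overlapped, and the directions were opposite. With the first number as block, Cyfip2 passed in neurons after adjustment (adjusted p = 0.0276, 0.679% of all genes) and missed it with the whole number (adjusted p = 0.0560). Mtor, the kinase that phosphorylates the eIF4E binding proteins, was called higher with the first-number block (0.07, limma p = 0.0246, exact permutation p = 0.143 without the block). That fit called 11% of all genes.

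Of 11 other initiation factors (such as Denr, Abce1 and Ddx3x), 0 were called in either culture, with 10 of 11 lower in neurons (50.8% of all genes). Of 11 elongation and termination factors, 1 was called in neurons and 0 in astrocytes, again with 10 of 11 lower in neurons. The called gene was Eef1b2, the exchange factor of eEF1A, with 3848 to 4013 in AM-Veh and 3619 to 3899 in AM-Allo (-0.08 ± 0.03, limma p = 0.0301, adjusted p = 0.80; exact permutation p = 0.0571). The release factor Etf1 was called lower with the first-number block, which called 11% of all genes (-0.07, limma p = 0.0191, exact permutation p = 0.314 without the block). Markers moved beside these genes: the neuron marker Tubb3 had 8417 to 9551 in AM-Veh and 9744 to 11140 in AM-Allo neurons (limma p = 0.00271, exact permutation p = 0.0286). Of the 9 tested neuron markers 5 were higher and 4 lower, with 3 called higher and 1 called lower, beside 5.69% of all genes called. Of the 8 oligodendrocyte lineage markers 7 were higher, and of the 9 astrocyte markers 8 were lower, 0 of either called. With the first-number block, 6 neuron markers (4 higher, 2 lower), 5 oligodendrocyte lineage markers (5 higher) and 2 astrocyte markers (1 higher, 1 lower) were called, against 11% of all genes. The sum of the 9 neuron markers was 54878 to 60755 in AM-Veh and 57674 to 65528 in AM-Allo. The 9 astrocyte markers summed to 199565 to 258956 in AM-Veh and 198968 to 251362 in AM-Allo, and the 6 mesenchymal markers to 625 to 1450 and 758 to 2557, the highest in AM-Allo 1-1. Their part in the estimates was not tested. Without AM-Allo 1-1, 1 member was called (Eif2ak2, lower; 5.44% of all genes), and 5 with the first number as block (9.79% of all genes).

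The larger difference in neurons lay between the libraries of first number 1 and first number 2. With treatment in the fit, 22 of 52 members were called at an unadjusted p under 0.05 (29.3% of all genes), 8 higher and 14 lower in first number 2, and 15 after adjustment (17.2% of all genes). Eif4ebp1, which encodes the eIF4E binding protein released by mTOR, differed most. It had 364, 397, 359 and 363 normalized counts in the libraries of first number 1 (AM-Veh 1-1 and 1-2, then AM-Allo) and 725, 796, 826 and 814 in those of first number 2. The level in first number 2 was 2.13 times that in first number 1, a log2 difference of 1.09 ± 0.06 (limma, adjusted p = 8.0e-09), and ranked 95 in size among all 15314 genes. Both treatments showed the same step. In the 6 astrocyte libraries Eif4ebp1 had 387 to 436.

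**Figure D3:**
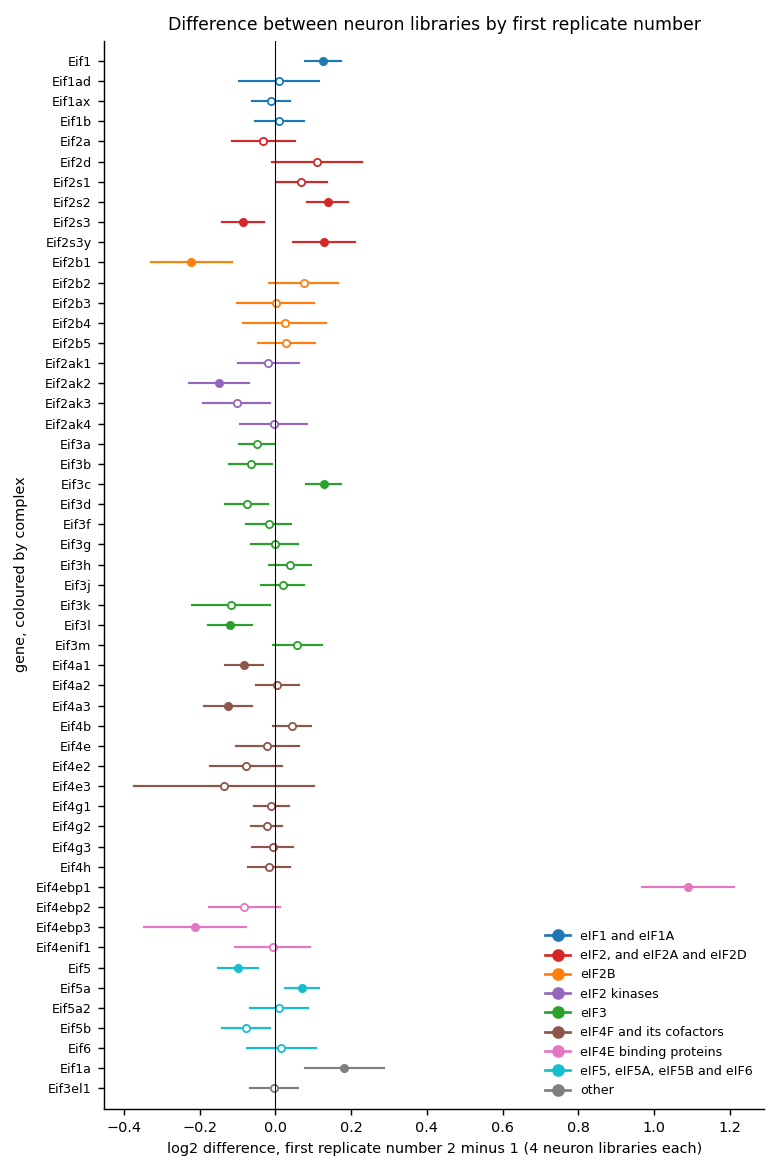
Log2 difference between neuron libraries of first number 2 and first number 1 (x axis, 4 libraries each, treatment in the fit) for each of the 52 genes (y axis, coloured by complex). Points are limma estimates, bars 95% intervals, and filled points have an adjusted p under 0.05: 15 genes, with Eif4ebp1 alone near 1.09 and the rest between -0.22 and 0.18.

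The other members differed by at most 0.22 on the log2 scale. Higher in first number 2 after adjustment were Eif1a (0.18), Eif2s2 (0.14), Eif1 (0.13), Eif3c (0.13), Eif2s3y (0.13) and Eif5a (0.07). Eif3c, a core subunit of eIF3, had 6739 ± 73 (SD, n = 4) in first number 1 and 7363 ± 46 (SD, n = 4) in first number 2, and the start codon gatekeeper Eif1 had 11934 ± 167 and 13028 ± 248. Lower in first number 2 were Eif2b1 (-0.22), Eif4ebp3 (-0.21), Eif2ak2 (-0.15), Eif3l (-0.12), Eif4a3 (-0.12), Eif5 (-0.10), Eif2s3 (-0.09) and Eif4a1 (-0.08). Members of one complex thus lay on both sides. Of eIF2, the beta gene Eif2s2 and the Y-linked gamma gene Eif2s3y were higher, and the X-linked gamma gene Eif2s3 was lower. The ratio of Eif2s3 to Eif2s3y counts was 5.74 to 5.95 in first number 1 and 4.87 to 5.29 in first number 2. The sex of the fetuses is not given, and its part in this ratio was not tested. Of eIF3, Eif3c was higher and Eif3l lower. Of the eIF4E binding proteins, Eif4ebp1 was higher and Eif4ebp3, with the uncertainty of its counts given above, lower.

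Eif4ebp1 is known as one of the targets of Atf4, the transcription factor whose mRNA is translated when eIF2 alpha is phosphorylated. Of the 14 tested genes of the eIF2 list, 13 were higher in first number 2, beside 49.2% of all genes. Of the 13, 9 were called, and Ddit4 was called lower (29.3% of all genes called). All 10 passed adjustment (17.2% of all genes). The median was 0.33 beside -0.0026 over all genes. Trib3, a pseudokinase induced by Atf4, had 101 to 125 in first number 1 and 295 to 364 in first number 2 (1.56 ± 0.10, limma, adjusted p = 3.4e-08). Asns, the asparagine synthetase, had 1441 to 1551 and 2124 to 2273 (0.58 ± 0.04), and Atf5 had 3693 to 4070 and 6300 to 7268 (0.88 ± 0.04). Atf4 itself had 2985 to 3431 and 3893 to 4430 (0.39 ± 0.04), and Ppp1r15a, the phosphatase subunit of the feedback loop, 500 to 581 and 800 to 960 (0.62 ± 0.06). Chac1, Atf3, Sesn2 and Ddit3 were also higher, by 0.46, 0.67, 0.27 and 0.22, and Ddit4 was lower (-0.22). In each of these 10 genes the libraries of one first number did not overlap those of the other. The share of all genes without such overlap was not counted, so no weight is put on this.

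**Figure D4:**
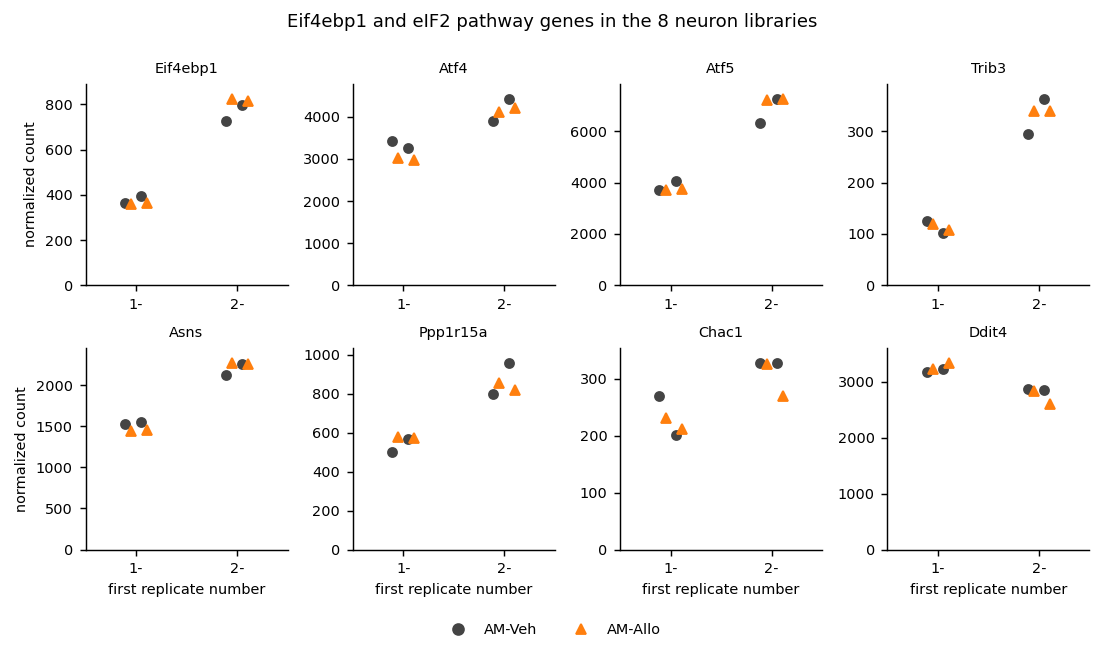
Normalized counts (y axis, from 0) of Eif4ebp1 and 7 genes of the eIF2 list in the 8 neuron libraries by first replicate number (x axis), grey circles AM-Veh and orange triangles AM-Allo. Eif4ebp1 lies between 359 and 397 for first number 1 and between 725 and 826 for first number 2, the other panels but Ddit4 are also higher for first number 2, and both treatments lie together.

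Cell type markers moved with the first number as well. The 9 astrocyte markers summed to 198968 to 210910 in first number 1 and 236144 to 258956 in first number 2, the 8 oligodendrocyte lineage markers to 42276 to 45308 and 38365 to 39078, and the 6 mesenchymal markers to 988 to 2557 and 625 to 778. The 9 neuron markers, at 56700 to 60755 and 54878 to 65528, overlapped. The part of these cells in the level of Eif4ebp1 was not tested. The other 3 lists differed less: 5 of 18 partners of eIF4F, 4 of 11 other initiation factors and 5 of 11 elongation and termination factors were called, against the 29.3% of all genes given above.

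In the authors' second neuron table, of variance-stabilized values, the means of both first numbers were the same for every gene, to within 0.001 in all 15314, and Eif4ebp1 stood at 9.74 in both. The difference between first numbers can therefore be seen only in the normalized counts. In the log2 normalized counts 15218 of the 15314 genes differed by more than 0.001.

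Levels in the 2 cultures can only be set side by side, since each table was scaled by itself, the cultures differed in medium, age and cell mix, and no test was made. As shares of the table in AM-Veh libraries, 36 members were higher in neuron and 16 in astrocyte cultures, with 18 over 1.5-fold higher in neurons, 3 over 1.5-fold higher in astrocytes and 19 within 1.2-fold. All 52 together made up 0.984% to 0.996% of the table in the neuron and 0.809% to 0.820% in the astrocyte AM-Veh libraries. With AM-Allo libraries included, the ranges were 0.960% to 0.996% and 0.806% to 0.820%.

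The helicase genes Eif4a1 and Eif4a2 differed between the cultures in opposite directions. Eif4a1 stood at 629 ± 19 (SD, n = 4) CPM (normalized counts scaled to the sum of the library's table) in neurons and 237.2 ± 2.5 (SD, n = 3) in astrocytes, while Eif4a2 stood at 358 ± 10 and 526 ± 23. Within a library, which needs no scaling, the ratio of Eif4a1 to Eif4a2 counts was 1.61 to 1.91 in the 8 neuron libraries and 0.427 to 0.494 in the 6 astrocyte libraries, with no overlap. The ratio carries the lengths of both transcripts, so it compares cultures and not the abundance of the paralogs. The ratio of Eif5a to Eif5a2 was 7.84 to 8.82 in neurons and 5.62 to 6.75 in astrocytes.

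Beside Eif4a1, the members farthest toward neurons were Eif2b3 (2.14-fold), Eif3j (2.09-fold), Eif5a (2.08-fold), Eif3b (2.00-fold), Eif4e (1.88-fold) and Eif4ebp2 (1.88-fold). The cap-binding Eif4e had 144.4 ± 6.7 CPM in neurons and 76.7 ± 1.9 in astrocytes. Toward astrocytes were Eif4e3, at 5.0 ± 0.7 and 10.5 ± 0.5 CPM, Eif4b, the cofactor of the helicase, at 258.0 ± 5.2 and 523.0 ± 9.8, and Eif3f, at 160.8 ± 3.5 and 244.5 ± 6.2. All 4 kinases were higher in astrocytes, by 1.10-fold (Eif2ak1) to 1.31-fold (Eif2ak2), while all 5 eIF2B genes were higher in neurons, by 1.26-fold to 2.14-fold. The levels of Eif2ak3 overlapped between cultures. Eif4g2, the member with the most counts, differed by 1.06-fold. Among eIF3 genes, 6 of the 11 were higher in neurons and 5 in astrocytes.

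**Figure D5:**
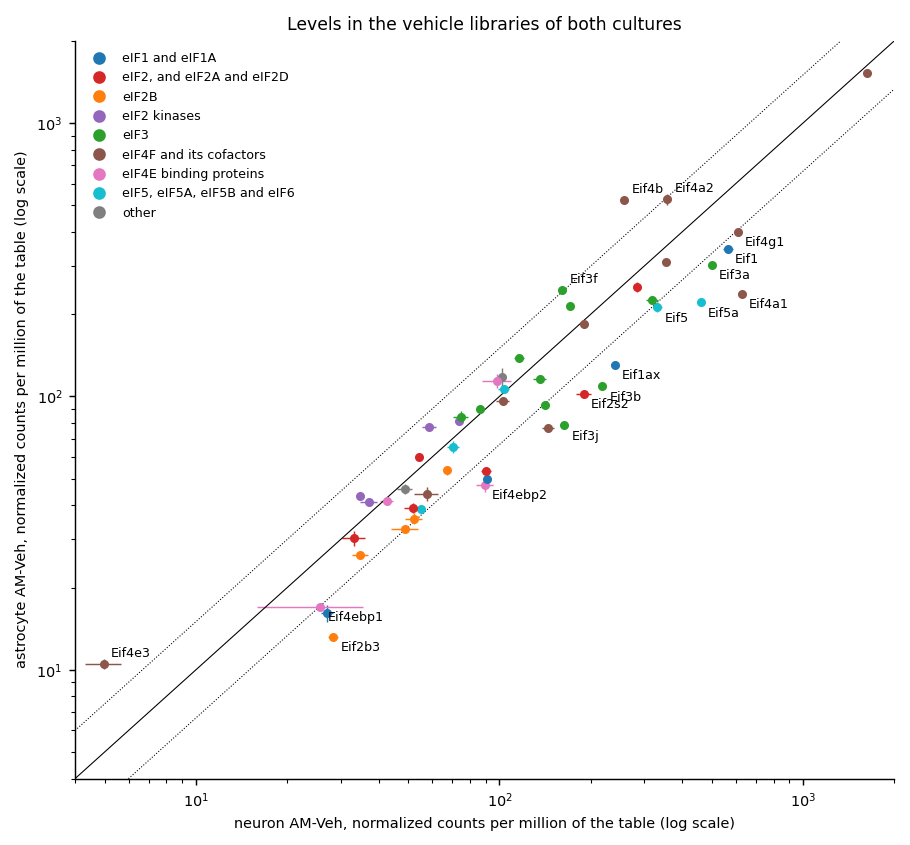
Mean CPM (normalized counts scaled to the table's sum) in neuron AM-Veh libraries (x axis, log scale, n = 4) and astrocyte AM-Veh libraries (y axis, log scale, n = 3) for the 52 genes, with SD bars and colours by complex. The solid line marks equal values and the dotted lines 1.5-fold: Eif4b, Eif4e3 and Eif3f lie above the upper dotted line and Eif4a1, Eif2b3 and Eif5a are among those below the lower one.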

How the data were processed

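Poly(A) RNA of all 14 libraries was sequenced on stranded libraries. The authors quantified transcripts with Salmon 0.14 against a rat annotation, summed them to genes with tximport, and deposited, for each culture, normalized counts scaled by DESeq2 1.18.1 (a signal scaled per library, not raw counts) and log2-scale variance-stabilized values. Members and gene lists were chosen with earlier results of these data known. Genes whose normalized counts averaged 10 or more were tested with limma 3.58.1 (R 4.3.3) on log2(normalized count + 1), with an empirical Bayes trend, two-sided, and Benjamini-Hochberg adjustment over all genes of a culture; a call is an unadjusted p under 0.05, the study's threshold. Fold changes are on that log2 scale. The fit was tested on simulated independent libraries with changes far larger than the Allo estimates of the members. That test therefore says nothing on changes as small as these. Raw counts were not used here, so no count model was fitted, and read numbers were estimated from the spacing of values under 6, of which 69.0% to 94.8% lay within 0.15 reads of a whole multiple. In neurons, deviations from group means of libraries with the same number correlated positively (r = 0.229 to 0.296 in 4 pairs, 15314 genes). So did those sharing only the first part (0.185 to 0.236), whereas the others correlated negatively (-0.319 to -0.150). Deviations cancel within a group for every gene, so the negative values follow in part from the positive ones and add no separate evidence. Blocked fits are given because of the positive values. The labels pair libraries by number only. Genes named were those called or not overlapping in either culture, the 2 highest and 2 lowest estimates of each culture, the kinases, Eif3m, Eif2s3y, the paralog groups, and the called list genes; those called only with a block, and those named by their difference between first numbers or cultures, were added after their values were seen. A rule by level per kilobase could not be applied, as transcript lengths were not used here. Gene names matched RefSeq (GRCr8) for 52 of 52 members. RefSeq names 71 pseudogene loci of 26 members, 11 of them of Eif5 and 10 of Eif4e, so reads of near-identical copies may be split. Alternatives were other pseudocounts, filters, scalings, moderation, the variance-stabilized values, blocks and leaving out each library.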

Additional observations from a re-analysis of the deposited data

Results flagged for a closer look

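Eif5a went opposite ways in the cultures: in neurons it was lower in AM-Allo in 4 of 4 same-number pairs (log2 fold change -0.0597), and in astrocytes every AM-Allo library lay above every AM-Veh library (0.0854). Eif2ak2 also had estimates of opposite sign. It stood at -0.0816 in neurons, lower in AM-Allo in 3 of 4 same-number pairs. In astrocytes it stood at 0.0904, and its groups did not overlap. Neither neuron estimate was called without a block, and both were called with the first number as block. For both genes the difference between cultures was not tested, since the tables were scaled separately.

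In 4 neuron AM-Veh genes 1 library stood far from the other 3. Eif2ak4 had 791 in library 2-1 beside 761 to 762, Eif2b4 697 in library 1-1 beside 787 to 799, Eif3b 4973 in library 1-1 beside 4773 to 4796, and Eif3f 3642 in library 1-2 beside 3523 to 3542. These are 4 of 104 groups tested (3.85%), and chance alone flags about 5% of groups.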

How the results depend on the processing

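In neurons the count of called members, 0, was 1 after quantile normalization, 9 with the variance-stabilized values (14.4% of all genes in that fit), 5 with the replicate block by whole number, 7 with the block by first number, and 0 to 3 when 1 library was left out. Chosen after seeing the data were the variance-stabilized values with the block by first number (7 called) and that block without AM-Allo 1-1 (5 called). The 9 calls come from values whose first-number means had been made equal, with no block in the fit. Without AM-Veh 1-1 the 3 called were Eif2s1, Eif2s2 and Eif3j, all lower. In astrocytes the count, 4, was 2 without the trend and 1 to 4 with 1 library left out, the lowest without AM-Veh library 1, where Eif3k was called. Upper-quartile rescaling and quantile normalization each left 3 calls, 1 higher and 2 lower. The count after adjustment was 0 in every fit of both cultures. The astrocyte median, -0.0003, was -0.0073 with upper-quartile rescaling, -0.0070 with quantile normalization, and -0.0046 to 0.0102 with 1 library left out. The 22 calls between first numbers became 0 with the variance-stabilized values, by their construction; upper-quartile rescaling split the 22 into 7 higher and 15 lower, quantile normalization into 6 and 16.

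Signs turned only in estimates near 0. Leaving out 1 library gave, in neurons, Eif1 -0.047 to 0.016, Eif2ak3 -0.014 to 0.047, Eif2b2 -0.065 to 0.0091, Eif3l -0.054 to 0.0026, Eif4a3 -0.041 to 0.014 and Eif4e3 -0.051 to 0.097, and in astrocytes Eif1ax -0.014 to 0.043, Eif2ak1 -0.070 to 0.0036, Eif2s2 -0.041 to 0.040, Eif2s3 -0.030 to 0.025, Eif2s3y -0.066 to 0.021 and Eif4ebp3 -0.016 to 0.068. Eif2s2 in astrocytes was also -0.0059 with upper-quartile rescaling and -0.0047 with quantile normalization. Of 462 neuron and 352 astrocyte values of named genes under the alternatives, 407 and 321 kept their direction and side of the threshold.

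Astrocyte numbers did not pair the libraries (r = -0.00698, 0.0117 and 0.0241 for same numbers), and with the replicate block 3 members were called. With 3 or 4 libraries a group, the 95% interval of the fits without a block had a median half-width of 0.0901 (neurons) and 0.0962 (astrocytes) on the log2 scale.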
